A study of Mus musculus with 2 samples.

Results

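Genes for 7 inhibitory receptors of lymphocytes, out of 27998 genes in the count tables, were followed in CD45+ leukocytes that infiltrate TSA mammary tumors. They were chosen by name, as the receptors that are most often measured on exhausted or regulatory T cells: Pdcd1 (coding for PD-1), Ctla4, Lag3, Havcr2 (TIM-3), Tigit, Cd160 and Entpd1 (CD39). TSA is a mammary adenocarcinoma cell line that was injected under the skin of Balb/c mice, and treatment began at a tumor area of 0.25 square cm. One group was left untreated and the other drank water with 0.5% nicotinamide (NAM, the amide of the vitamin niacin) for 10 days. Tumors of 3 mice per group were pooled before CD45+ cells were captured on magnetic beads, so each group is 1 library. No genetic modification is described for these samples, and the study's methods give female mice aged from 6 to 15 weeks for all of its experiments together. Counts are UMIs, molecular tags that are counted once per captured RNA molecule. There were 2922 untreated cells with 29161823 UMIs in all, and 3276 NAM cells with 32090120 UMIs. With 1 library per group there is no replicate spread and no test was made. Cells are not replicates, and NAM cannot be told apart from anything else that set these libraries off from each other.

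Inhibitory receptors are placed on the surface of T cells after antigen recognition and dampen signaling by the T-cell receptor or by the costimulatory receptor CD28. PD-1 and CTLA-4 belong to the CD28 family and bind B7 family ligands, LAG-3 is a relative of CD4 that binds MHC class II, TIM-3 binds phosphatidylserine and galectin-9, TIGIT binds the nectin-like protein PVR, and CD160 binds the TNF receptor family member HVEM. CD39 is an ectoenzyme that degrades extracellular ATP on the way to adenosine. CD8+ T cells that meet antigen for long in tumors carry several of these receptors at the same time, regulatory T cells carry CTLA-4 constantly, and TIM-3 and CD39 are also made by myeloid cells.

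The 7 genes lie on 6 chromosomes of the GRCm38 (mm10) assembly and are all annotated as protein-coding. Pdcd1 (ENSMUSG00000026285.7) is at chr1:94038305-94052553 on the minus strand and Ctla4 (ENSMUSG00000026011.13) at chr1:60887000-60915832 on the plus strand. Lag3 (ENSMUSG00000030124.2) spans chr6:124904361-124911705, Cd160 (ENSMUSG00000038304.14) chr3:96798763-96829351 and Tigit (ENSMUSG00000071552.5) chr16:43648867-43664146, all on the minus strand. Havcr2 (ENSMUSG00000020399.14) is at chr11:46454935-46481255 and Entpd1 (ENSMUSG00000048120.16) at chr19:40612366-40741602, both on the plus strand. These are GENCODE vM21 gene bounds. Reads were counted at the 3′ end of transcripts, and the RefSeq model of Tigit extends 22730 bases beyond the 3′ end of this gene model. Which annotation was counted is not given in the sources used here, and the part this plays in the low Tigit counts below was not tested. Ctla4 overlaps a pseudogene on its own strand, Entpd1 overlaps 3 further annotated genes, and whether reads were shared with these was not tested.

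Cells were sorted into classes by UMIs of marker genes, none of which was a receptor under study. CD8 T cells (2 or more UMIs of Cd3d, Cd3e and Cd3g and at least 1 of Cd8a and Cd8b1) numbered 101 untreated and 155 NAM cells. Regulatory-like T cells (no Cd8a or Cd8b1 UMI, with Foxp3 or with 2 or more UMIs of Il2ra and Ikzf2) numbered 77 and 85, other T cells 32 and 31, and NK cells 63 and 36. The remaining classes were macrophages (1917 and 2117), monocytes (178 and 186), type 1 dendritic cells (31 and 33), mature dendritic cells with Ccr7 and Fscn1 (12 and 16), Cd209a dendritic cells (32 and 37) and other myeloid cells (96 and 107), and 383 and 473 cells stayed ungated. The 7 T-cell markers found in the tables summed to 3467 to 6439 CPM (UMIs per 1000000 UMIs of the class) in the T-cell classes and to 7.77 and 8.08 CPM in macrophages, where Cd3d, Cd3e and Cd3g are 0 by the gate. The B-cell markers Ms4a1 and Cd79a were at 0 in the CD8 T, regulatory-like and NK classes. The lymphoid gates kept only droplets with under 0.5% of UMIs from 6 myeloid genes, C1qa, C1qb, C1qc and Lyz2 among them. Within that limit, the median of these 4 stood at 2.44% to 3.15% of the macrophage level, depending on class and library. Median depth was 4457 and 4498 UMIs in CD8 T cells against 9575 and 9598 in macrophages. For this reason shares of cells with a UMI are given at own depth and after thinning every cell to 3000 UMIs. Values in parentheses are the bounds of exact 95% intervals, which are conditional binomial for log2 ratios, Poisson for levels in CPM and Clopper-Pearson for shares. They hold the error of counting alone and nothing of the variation among cells or mice. In all, 11 cell barcodes occurred in both libraries.

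Across classes the receptors fell into a lymphoid group and a group shared with myeloid cells. The 4 lymphoid classes held 84.6% (untreated) and 86.6% (NAM) of Pdcd1 UMIs, 87.3% and 86.6% of Ctla4 UMIs, and 88.6% and 92.2% of Cd160 UMIs. They held only 5.85% and 6.74% of Havcr2 UMIs, since macrophages alone held 66.1% and 66.0%, and macrophages held 79.6% and 76.6% of Entpd1 UMIs. Lag3 stood between these groups, with 44.2% and 56.1% of its UMIs in the lymphoid classes and 32.4% and 23.2% in macrophages. These are shares of each gene's own UMIs and follow the number of cells per class as well as the level per cell.

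**Figure D1:**
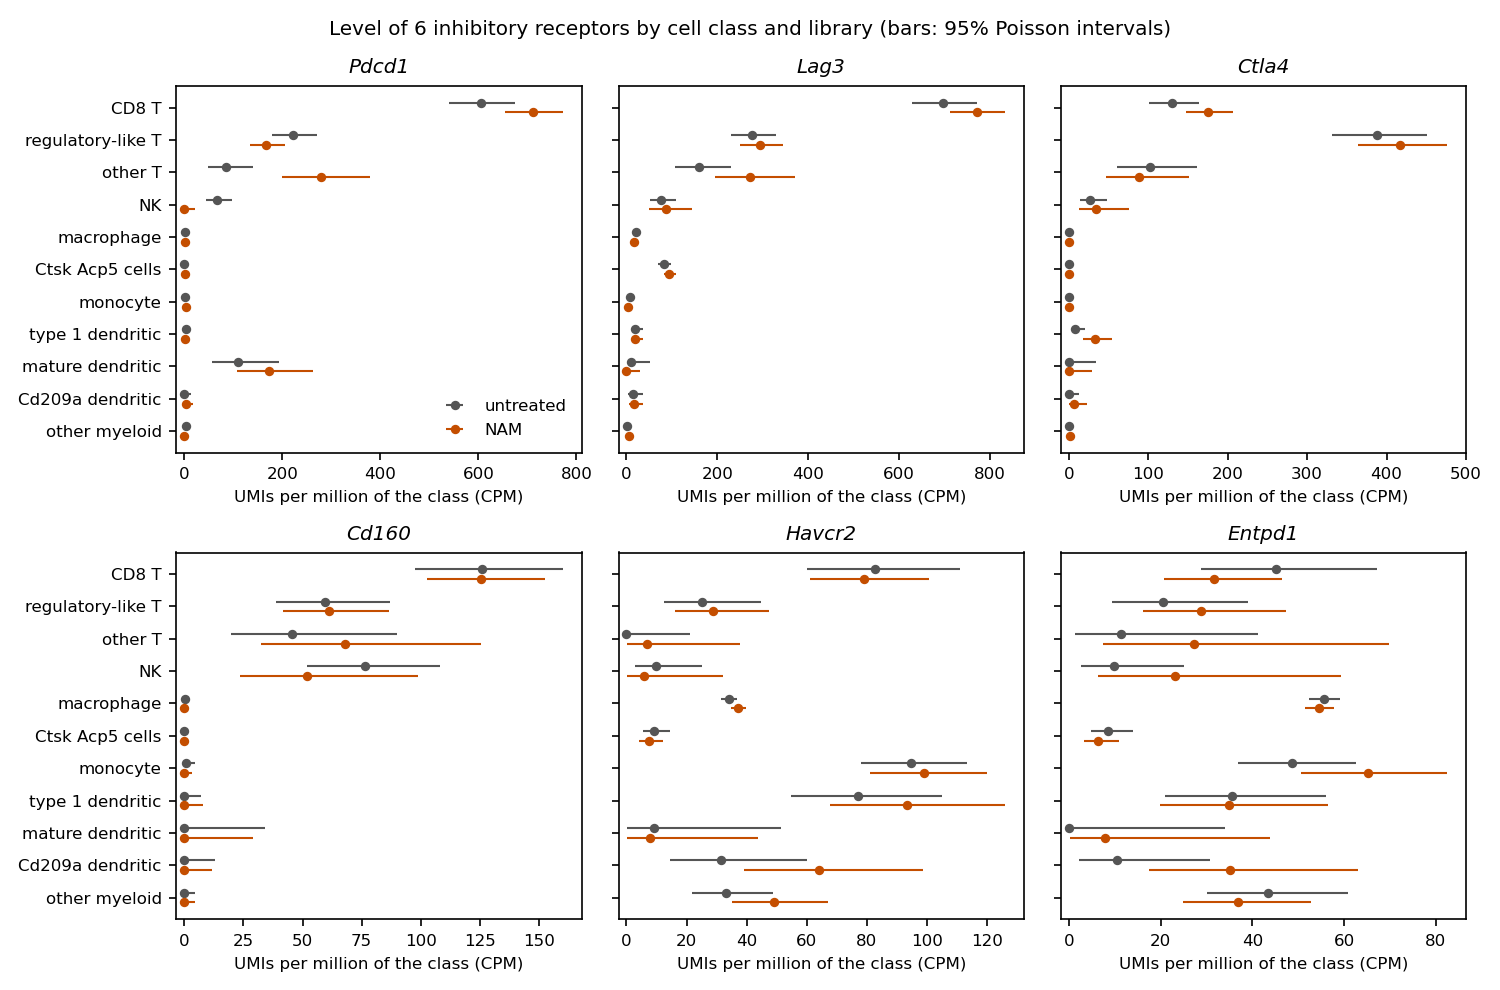
Level of 6 receptors (horizontal axis, UMIs per 1000000 UMIs of the class, a different linear scale in each panel) in 11 cell classes (vertical axis) of the untreated (grey) and NAM (orange) library, points with exact 95% Poisson intervals. Pdcd1, Lag3 and Cd160 stand highest in CD8 T cells, Ctla4 in regulatory-like T cells, and Havcr2 and Entpd1 have myeloid classes at or above the CD8 T level.

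Pdcd1, the gene of PD-1, was highest in CD8 T cells. It gave 322 UMIs there in the untreated library, or 605 CPM (541 to 675), and 584 UMIs or 712 CPM (655 to 772) in the NAM library. Next came regulatory-like T cells at 221 CPM (179 to 270) in the untreated library and other T cells at 279 CPM (200 to 379) under NAM, where regulatory-like T cells stood at 167 CPM (133 to 205). The CD8 T interval lay above that of every other class in both libraries. At least 1 UMI was found in 71.3% of untreated CD8 T cells (61.4% to 79.9%) and in 74.8% of NAM CD8 T cells (67.2% to 81.5%), and after thinning in 66.3% and 66.5%. A positive CD8 T cell carried 4.47 and 5.03 UMIs on average, with at most 13 and 18. For comparison, the share in macrophages was 0.939% and 1.70%, and after thinning 0.365% and 0.378%.

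Lag3, the MHC class II binding receptor, had the same leading class. CD8 T cells held 371 UMIs, or 697 CPM (628 to 772), in the untreated library and 632 UMIs, or 770 CPM (711 to 833), in the NAM library. Regulatory-like T cells stood at 276 and 295 CPM, other T cells at 159 and 272 CPM and NK cells at 76.3 and 86.7 CPM. The intervals of regulatory-like and other T cells overlapped, and those of other T cells lay above the Lag3 level of macrophages (20.7 and 16.2 CPM). After thinning, a Lag3 UMI was found in 65.3% and 67.7% of CD8 T cells and in 17.5% and 19.4% of NK cells.

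Ctla4 had another order. It was highest in regulatory-like T cells at 388 CPM (332 to 451) in the untreated and 417 CPM (364 to 477) in the NAM library, and CD8 T cells were apart from them at 130 CPM (101 to 164) and 175 CPM (148 to 207). Other T cells, at 102 and 88.5 CPM, were not told apart from CD8 T cells in either library. NK cells held 11 and 6 UMIs and macrophages 0.511 and 0.789 CPM. A single regulatory-like cell of the NAM library carried 25 Ctla4 UMIs, the most in any cell.

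Cd160, known from cytotoxic T cells and NK cells, was found in all 4 lymphoid classes. CD8 T cells held 126 CPM in the untreated library (97.6 to 160) and 126 CPM in the NAM library (102 to 152). NK cells stood at 76.3 and 52.0 CPM, regulatory-like T cells at 59.3 and 61.3 CPM and other T cells at 45.5 and 68.1 CPM, with overlapping intervals between neighbours in the order. All 7 myeloid groups plotted stood below 1 CPM or at 0 in both libraries.

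Havcr2, the gene of TIM-3, was led by monocytes at 94.6 CPM (78.1 to 114) and 99.2 CPM (81.1 to 120). CD8 T cells at 82.7 CPM (60.1 to 111) and 79.2 CPM (61.1 to 101) and type 1 dendritic cells at 77.0 CPM (54.8 to 105) and 93.6 CPM (67.7 to 126) were not told apart from monocytes. Macrophages were lower, at 34.1 CPM (31.6 to 36.8) and 37.3 CPM (34.7 to 39.9). The part of free myeloid RNA in the Havcr2 and Entpd1 levels of lymphoid classes was not tested, since the gate itself limits the genes that would measure it. Regulatory-like T cells held 25.1 and 28.7 CPM, NK cells 4 and 1 UMIs, and other T cells 0 and 1 UMI.

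Entpd1, the gene of CD39, was spread over many classes. Macrophages stood at 55.6 CPM (52.4 to 59.0) and 54.5 CPM (51.4 to 57.7) and monocytes at 48.6 CPM (37.0 to 62.6) and 65.2 CPM (50.7 to 82.5). CD8 T cells held 45.1 CPM (28.9 to 67.1) in the untreated library, overlapping with macrophages, and 31.7 CPM (20.7 to 46.4) in the NAM library, below them. Mature dendritic cells had 0 and 1 Entpd1 UMI.

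Tigit was barely detected. All cells together gave 14 UMIs in each library, of which CD8 T cells held 4 and 4 and regulatory-like T cells 2 and 4. That is 7.52 CPM (2.05 to 19.2) and 4.87 CPM (1.33 to 12.5) in CD8 T cells and 4.56 CPM (0.553 to 16.5) and 7.66 CPM (2.09 to 19.6) in regulatory-like T cells. CD8 T cells lay above macrophages, at 0.205 CPM (0.0557 to 0.524) and 0.139 CPM (0.0287 to 0.407), while a difference between the T-cell classes or between the libraries was not detectable at this depth.

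Profiles over 9 classes with 20 or more cells in both libraries (18 class and library profiles, as log2(CPM + 10)) describe which genes vary alike. They share libraries and depth per class, so the coefficients are a description only. Pdcd1, Lag3, Ctla4 and Cd160 went together with Pearson r of 0.86 to 0.94, Havcr2 and Entpd1 had r of 0.67 with each other, and each pair across these groups was negative (−0.44 to −0.18). Genes most like Pdcd1 were Camk4 (r = 0.97), Ccdc92 (0.96), Faah (0.95), Bcl11b (0.95) and Chst2 (0.95). Those most like Lag3 were Chst2 (0.97), Zap70 (0.96), Gpr174 (0.96), Lat (0.96) and Cxcr6 (0.96). For Ctla4 they were Msi2 (0.96), Tnfrsf4 (0.95), Grap (0.94), Icos (0.94) and Sdf4 (0.94), and for Cd160 they were Sh2d1a, Thy1, Zap70, Sh2d2a and Nkg7 (0.99 each). The likeness was weaker for Havcr2, with 1810044D09Rik (0.80), Mkrn1 (0.79), Brd7 (0.77), Mrpl54 (0.76) and Alcam (0.76), and for Entpd1, with Gas2l3 (0.82), Cndp2 (0.78), Itgb5 (0.78), Fam26f (0.78) and C3ar1 (0.78). Tigit had too few UMIs for a profile.

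The comparison of NAM with untreated tumors asks whether the receptors were at another level on the infiltrating lymphocytes. In CD8 T cells Pdcd1 and Ctla4 were slightly higher in the NAM library, and no receptor was lower by an interval that left out 0. As log2 ratios of the NAM level over the untreated level, Pdcd1 had 0.23 (0.04 to 0.44) and Ctla4 0.44 (0.01 to 0.87). Lag3 had a ratio of 0.14 (−0.04 to 0.33), Havcr2 of −0.06 (−0.64 to 0.52), Cd160 of 0.00 (−0.46 to 0.46) and Entpd1 of −0.51 (−1.37 to 0.35). The share of CD8 T cells with a Ctla4 UMI was 35.6% (26.4% to 45.8%) in the untreated and 51.0% (42.8% to 59.1%) in the NAM library, and 24.8% and 38.1% after thinning. Both differences are near the limit of what the counts resolve: after thinning, the Pdcd1 interval was −0.02 to 0.50, and with 1 Cd3 UMI enough for the T-cell gate the Ctla4 interval was −0.05 to 0.81. None of the 6 receptors with 20 or more UMIs was past 1.5 fold in either direction, while 10.1% of the 5813 genes with as many UMIs in CD8 T cells were higher and 11.3% lower by that much. The median log2 ratio was 0.07 over these 6 receptors and 0.03 over all 5813 genes. In the same class 6 regulatory T-cell markers summed to 601 and 824 CPM and 11 NK-cell markers to 1826 and 2320 CPM, and their part in the receptor results was not tested.

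In regulatory-like T cells no interval left out 0. Pdcd1 was at 221 CPM in the untreated and 167 CPM in the NAM library, a log2 ratio of −0.41 (−0.84 to 0.02). Ctla4 had a ratio of 0.11 (−0.19 to 0.40), Lag3 of 0.09 (−0.26 to 0.45) and Cd160 of 0.05 (−0.75 to 0.85). Again 0 of 6 receptors passed 1.5 fold, against 12.0% of 4995 genes higher and 13.5% lower. With Foxp3 alone as the gate the Pdcd1 ratio was −0.87 (−1.58 to −0.19) and the Ctla4 ratio 0.35 (0.02 to 0.68), both with intervals that left out 0. The share of cells with Ctla4 did not rise with this ratio. After thinning it was 76.9% (60.7% to 88.9%) in the untreated and 67.6% (50.2% to 82.0%) in the NAM cells with Foxp3.

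Among the 32 and 31 other T cells, Pdcd1 gave 15 UMIs without and 41 UMIs with NAM. Its level was 85.4 CPM (47.8 to 141) against 279 CPM (200 to 379), a log2 ratio of 1.71 (0.83 to 2.67). These UMIs lay in 5 and 10 cells, and the 5 highest cells held 100% and 75.6% of them. Marker sums of this small class also differed between the libraries, at 3467 and 4323 CPM for 7 T-cell markers, 1321 and 708 CPM for 5 mature dendritic markers, 96.8 and 13.6 CPM for 4 neutrophil markers, and 154 and 0 CPM for 4 mast cell and basophil markers, and their part in the Pdcd1 result was not tested. Lag3 was at 159 and 272 CPM, a ratio of 0.77 (0.04 to 1.52), which had an interval that reached 0 under 7 of the other settings and turned to −0.44 (−0.99 to 0.11) where 1 Cd3 UMI was enough for the gate. Pdcd1 and Lag3 were thus 2 of 3 receptors with 20 or more UMIs past 1.5 fold upward, in a class where 15.4% of 2126 genes were higher and 14.6% lower. When the cells without Foxp3 in the regulatory-like gate were counted as other T cells, the Pdcd1 ratio was 0.55.

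NK cells differed in Pdcd1. The untreated library had 27 UMIs, all in 3 of 63 cells (15, 9 and 3 UMIs), and the NAM library had 0 UMIs in 36 cells (up to 21.3 CPM), and the interval of the log2 ratio ended at −1.54. Of these 3 cells, the first carried 5 Ncr1, 9 Ikzf2, 5 Lck and 2 Cd2 UMIs, the next held 8 Ncr1, 20 Thy1 and 1 Cd3g UMIs at a depth of 26580 UMIs, and the last held 16 Ccr7 UMIs and 2 Klre1 UMIs. Because these 3 cells held all the UMIs, leaving out the 5 cells with most Pdcd1 UMIs could only bring the untreated level to 0. Lag3 in NK cells had a ratio of 0.19 (−0.81 to 1.12) and Cd160 of −0.55 (−1.81 to 0.55), which was −3.19 (−8.58 to −0.51) after thinning, with a Cd160 UMI left in 2.78% of NAM NK cells. Pdcd1 was the 1 of 3 receptors lower past 1.5 fold, against 15.1% of 3445 genes lower and 11.8% higher. With 27 and 0 UMIs it reached the limit of 20 UMIs through the untreated library alone, so this count adds nothing to those UMIs.

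**Figure D2:**
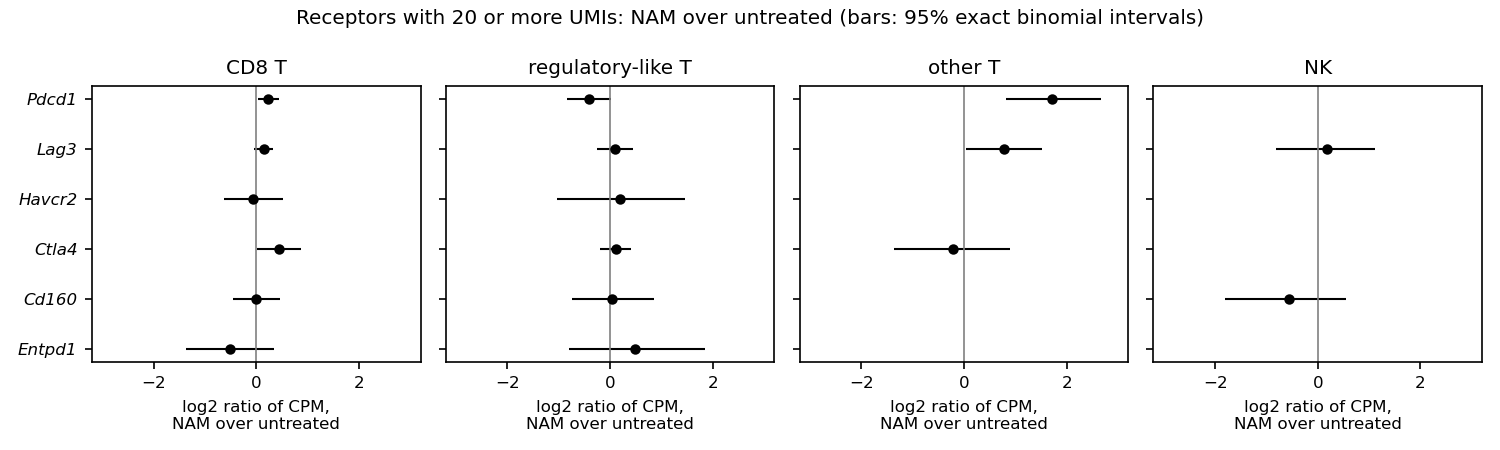
Log2 ratio of CPM, NAM over untreated (horizontal axis), for receptors with 20 or more UMIs in the class (vertical axis), in the 4 lymphoid classes, with exact 95% conditional binomial intervals. Pdcd1 in NK cells is not drawn because the NAM library had 0 UMIs, and the intervals of Pdcd1 and Ctla4 in CD8 T cells and of Pdcd1 and Lag3 in other T cells lie above 0.

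Of the receptors that myeloid cells carry, Lag3 was lower in NAM macrophages, and for Havcr2 and Entpd1 no interval left out 0. Macrophage Havcr2 had a log2 ratio of 0.13 (−0.02 to 0.28) and macrophage Entpd1 of −0.03 (−0.15 to 0.09). Lag3 gave 404 UMIs or 20.7 CPM (18.7 to 22.8) in untreated macrophages against 348 UMIs or 16.2 CPM (14.5 to 17.9) in NAM macrophages, a ratio of −0.35 (−0.57 to −0.14). After thinning to equal depth this interval was −0.70 to 0.13. Pdcd1, near 0 in this class, gave 19 and 41 UMIs, or 0.971 and 1.90 CPM, with a ratio of 0.97 (0.15 to 1.84), while at equal depth 7 of 1917 and 8 of 2117 macrophages held a Pdcd1 UMI. In monocytes Havcr2 had a ratio of 0.07 (−0.33 to 0.46) and Entpd1 of 0.42 (−0.10 to 0.95). Among type 1 dendritic cells, Ctla4 gave 4 UMIs in 4 of 31 untreated cells and 15 UMIs in 4 of 33 NAM cells, of which 1 cell held 9.

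Lag3 was higher in cells rich in Ctsk and Acp5, the protease and phosphatase genes by which osteoclasts are known. Cells with no Cd3 UMI and 0.3% or more of their UMIs from Ctsk and Acp5 numbered 104 and 126, of which 95 and 118 had stayed ungated and 7 and 6 were also counted as macrophages. This class was added after the values were seen. Their Lag3 level was 82.9 CPM (70.4 to 97.1) without and 94.5 CPM (81.7 to 109) with NAM, not told apart from NK cells and above macrophages. In cells with under 0.04% of UMIs from these genes it was 16.2 CPM (14.5 to 18) and 12.4 CPM (11 to 14). The steps between were uneven, with 31.5 and 37.1 CPM from 0.04% to 0.16%, and 22.9 CPM (10.5 to 43.4) and 50.1 CPM (27.4 to 84.0) in the 26 and 21 cells from 0.16% to 0.3%. A Lag3 UMI was found in 49.0% and 54.0% of the Ctsk Acp5 cells at own depth, and after thinning in 21.2% (13.8% to 30.3%) and 17.5% (11.3% to 25.2%) of them against 3.19% and 3.13% of the cells low in both genes. T-cell markers Lck, Cd2 and Thy1 summed to 5.39 and 4.90 CPM in the Ctsk Acp5 cells, beside 9.98 and 8.05 CPM in the low cells. With Cd5, and with Cd3d, Cd3e and Cd3g at 0 by the gate, the Ctsk Acp5 cells had 11.3 and 11.8 CPM. In macrophages the same sum was 7.77 and 8.08 CPM, and the part of T-cell RNA in the Lag3 level was not tested. Pdcd1 was at 0.539 and 1.47 CPM in the Ctsk Acp5 cells. Between the libraries Lag3 of these cells had a log2 ratio of 0.19 (−0.12 to 0.50).

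**Figure D3:**
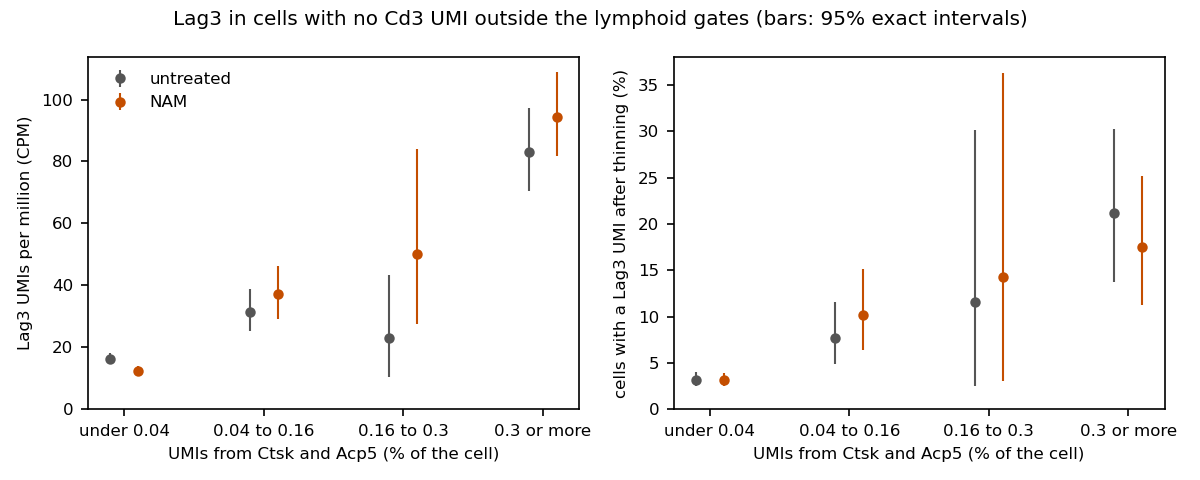
Lag3 in cells with no Cd3 UMI outside the lymphoid gates, by the share of their UMIs from Ctsk and Acp5 (horizontal axis, % of the cell), as CPM (left) and as the share of cells with a Lag3 UMI after thinning to 3000 UMIs (right, %), untreated grey and NAM orange, with exact 95% intervals. Cells at 0.3% or more stand at 82.9 and 94.5 CPM, above the 16.2 and 12.4 CPM of cells under 0.04%.

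Pdcd1 was also present in mature dendritic cells, the Ccr7 and Fscn1 cells that carry antigen to lymph nodes. It was at 111 CPM (57.2 to 193) in 12 untreated cells and 173 CPM (109 to 263) in 16 NAM cells, above macrophages in both libraries. UMIs came from 5 cells in each library, with 6, 3, 1, 1 and 1 UMIs in the untreated and 8, 7, 5, 1 and 1 UMIs in the NAM library. Cd3d, Cd3e and Cd3g are 0 in this class by the gate. Of the T-cell markers the gate did not use, Cd2, Cd5, Lck, Thy1, Cd8a and Cd4, 9 of these 10 cells held 0 UMIs and the other held 2 Thy1 UMIs. Cd160 had 0 UMIs in this class in both libraries, and Lag3 had 1 UMI in the untreated library.

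Several receptors occurred together in CD8 T cells. At 3000 UMIs per cell, 64 of 101 untreated CD8 T cells (63.4%, 53.2% to 72.7%) and 112 of 155 NAM CD8 T cells (72.3%, 64.5% to 79.1%) had UMIs of at least 2 of the 7 receptors. At least 3 were found in 42.6% (32.8% to 52.8%) and 48.4% (40.3% to 56.5%), and none in 14.9% and 12.9%. The mean number per cell was 2.09 and 2.26. Regulatory-like T cells reached 2 or more in 45.5% and 44.7% of cells and 3 or more in 13.0% and 16.5%, other T cells 2 or more in 15.6% and 29.0%, and NK cells in 12.7% (8 cells) and 0% (0 of 36, up to 9.74%). The order of the libraries in NK cells turned at own depth, where the shares were 17.5% (9.05% to 29.1%) and 19.4% (8.19% to 36.0%). The intervals of both libraries overlapped in every class.

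**Figure D4:**
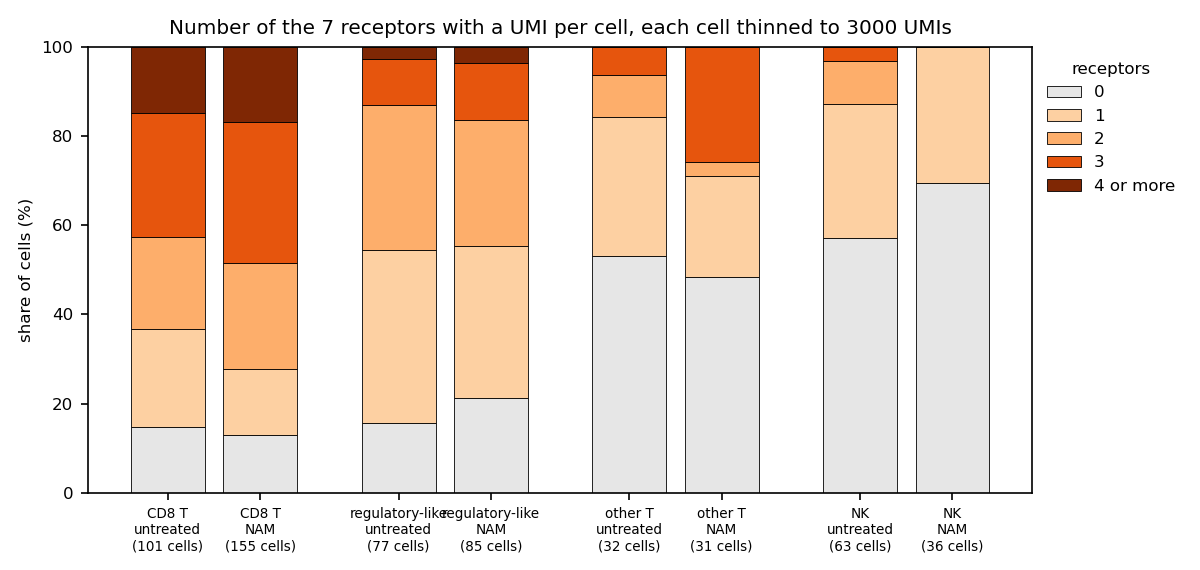
Share of cells (vertical axis, %) by the number of the 7 receptors with a UMI (color), in 4 lymphoid classes of each library, every cell thinned to 3000 UMIs, with the number of cells under each bar. Cells with 2 or more receptors make up 63.4% and 72.3% of CD8 T cells and 45.5% and 44.7% of regulatory-like T cells.

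Shares of CD8 T cells with Lag3 or Ctla4 were compared between cells with and without Pdcd1. Of untreated CD8 T cells with a Pdcd1 UMI, 50 of 67 had Lag3 (74.6%, 62.5% to 84.5%), against 16 of 34 without Pdcd1 (47.1%, 29.8% to 64.9%), with intervals that overlap narrowly. In the NAM library these shares were 85 of 103 (82.5%, 73.8% to 89.3%) and 20 of 52 (38.5%, 25.3% to 53.0%), with intervals apart. Ctla4 was present in 24 of 67 untreated cells with Pdcd1 (35.8%, 24.5% to 48.5%) and in 1 of 34 without (2.94%, 0.0744% to 15.3%). Under NAM it was present in 47 of 103 (45.6%, 35.8% to 55.7%) and 12 of 52 cells (23.1%, 12.5% to 36.8%), where the intervals overlap narrowly. Havcr2 was found in 20.9% of Pdcd1-positive and 11.8% of Pdcd1-negative cells of the untreated library and in 21.4% and 15.4% in the NAM library, with overlapping intervals. Cd160 was found in 25.4% and 14.7% of untreated and in 23.3% and 23.1% of NAM cells with and without Pdcd1. Of untreated CD8 T cells with Cd160, 20 of 22 held Lag3 (90.9%, 70.8% to 98.9%) against 58.2% (46.6% to 69.2%) of those without, while these shares were 66.7% and 68.1% in the NAM library. The cells are thinned to 1 depth, but RNA content per cell and detection of any gene remain linked, and the part of this in joint detection was not tested.

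The CD8 T cells with 2 or more receptors also differed in other genes. This comparison was added after the values were seen and sets them beside CD8 T cells with 0 or 1 receptor at equal depth, in each library on its own. Of 33 genes from the lists below with 20 or more UMIs in both libraries, 12 were higher in both libraries with intervals that left out 0 and 1 was lower, while over all 1999 genes with as many UMIs 3.7% were higher and 3.2% lower in both. The higher ones included Tox, a factor of the exhausted T-cell state, at 0.541 against 1.82 UMIs per 10000 in the untreated library (log2 ratio 1.75, 0.49 to 3.29) and 0.698 against 2.02 in the NAM library (1.54, 0.53 to 2.73). Nr4a2, a factor induced by T-cell receptor signaling, had ratios of 1.03 and 1.43. Of effector molecules, Ifng had ratios of 1.5 and 2.1, Nkg7 of 0.86 and 1.28, Ccl3 of 2.73 and 3.06, Ccl4 of 2.23 and 0.83 and Ccl5 of 0.57 and 0.76. The chemokine receptor Cxcr6, found on tissue-resident T cells, had ratios of 1.24 and 2.09, the inhibitory receptor Klrc1 of 0.63 and 1.04, the costimulatory receptor Cd27 of 1.30 and 0.67, Id2 of 0.56 and 1.29 and Ccr7 of 0.59 and 0.62. Klf2, a factor of quiescent recirculating T cells, was the lower one, at 9.91 UMIs per 10000 in cells with 0 or 1 receptor against 2.24 in cells with 2 or more in the untreated library (−2.15, −2.69 to −1.62) and 4.34 against 1.64 in the NAM library (−1.41, −1.97 to −0.84).

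In the regulatory-like gate, Ctla4 was rare in cells with Cd160. After thinning, 0 of 11 untreated cells with Cd160 held Ctla4, against 43 of 66 cells without Cd160 (65.2%, 52.4% to 76.5%), and in the NAM library 0 of 10 against 37 of 75 (49.3%, 37.6% to 61.1%). The upper limits of the shares at 0 were 28.5% and 30.8%, below the lower limits in cells without Cd160. At own depth, 1 of 18 untreated and 2 of 14 NAM cells with Cd160 held Ctla4, against 48 of 59 and 41 of 71 cells without. The gate held cells with a Foxp3 UMI (39 untreated and 37 NAM) and cells that Il2ra and Ikzf2 had let in (38 and 48), and the following split was added after the values were seen. Ctla4 was at 568 CPM (478 to 672) and 725 CPM (622 to 840) in cells with Foxp3 and at 164 CPM (112 to 231) and 150 CPM (108 to 203) in cells without. Cd160 had 0 UMIs in the 39 and 37 cells with Foxp3 (up to 15.2 and 15.2 CPM), and 133 CPM (86.8 to 195) and 114 CPM (78.3 to 162) in the cells without. Havcr2 was at 45.3 and 41.2 CPM with Foxp3, and at 0 and 17.9 CPM without. Pdcd1 was at 218 and 119 CPM with and at 225 and 207 CPM without Foxp3, with overlapping intervals between these cells in each library. Lag3 was apart in the untreated library, at 362 CPM (291 to 447) with and 169 CPM (116 to 237) without Foxp3, and overlapped in the NAM library, at 305 and 286 CPM.

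Xcl1, Klrc1 and Ncr1, which NK cells are known to carry, were higher in the cells of this gate without Foxp3, and were named after their values were seen. The Xcl1 level was 869 and 977 CPM without against 4.12 and 8.24 CPM in cells with Foxp3, Klrc1 was at 205 and 322 CPM against 4.12 and 16.5 CPM, and Ncr1 at 153 and 347 CPM against 0 and 24.7 CPM. After thinning, a Ncr1 UMI was found in 8 of the 38 and 14 of the 48 cells without Foxp3. Gzmb did not set these cells apart in the untreated library, at 961 CPM (829 to 1109) without and 956 CPM (837 to 1087) with Foxp3. Its intervals overlapped in the NAM library too, at 1291 CPM (1162 to 1432) without and 1050 CPM (925 to 1187) with Foxp3. The intervals of Klre1 overlapped in both libraries. Cd4 stood at 61.4 and 46.5 CPM in the cells without Foxp3 against 124 and 103 CPM, with overlapping intervals. Name and rule therefore differ for these 38 and 48 cells: they met the rule, but Foxp3 was at 0. Tnfrsf4, which regulatory T cells carry, was at 762 and 766 CPM without and 1895 and 2207 CPM with Foxp3. Within the whole gate, cells with 2 or more receptors had 10 of 29 list genes higher in both libraries (3.68% of all 1550 genes) and 1 lower (4.52% of all). The higher ones were Tnfrsf4 (1.14 and 1.16), Tnfrsf18 (0.96 and 1.09), Tnfrsf9 (0.72 and 1.27), Icos (1.11 and 0.89), Cd28 (1.26 and 0.95), Maf, Klrg1, Ikzf2, Id2 and Ccr7, and the lower one was Klrc1 (−2.61 and −3.32).

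**Figure D5:**
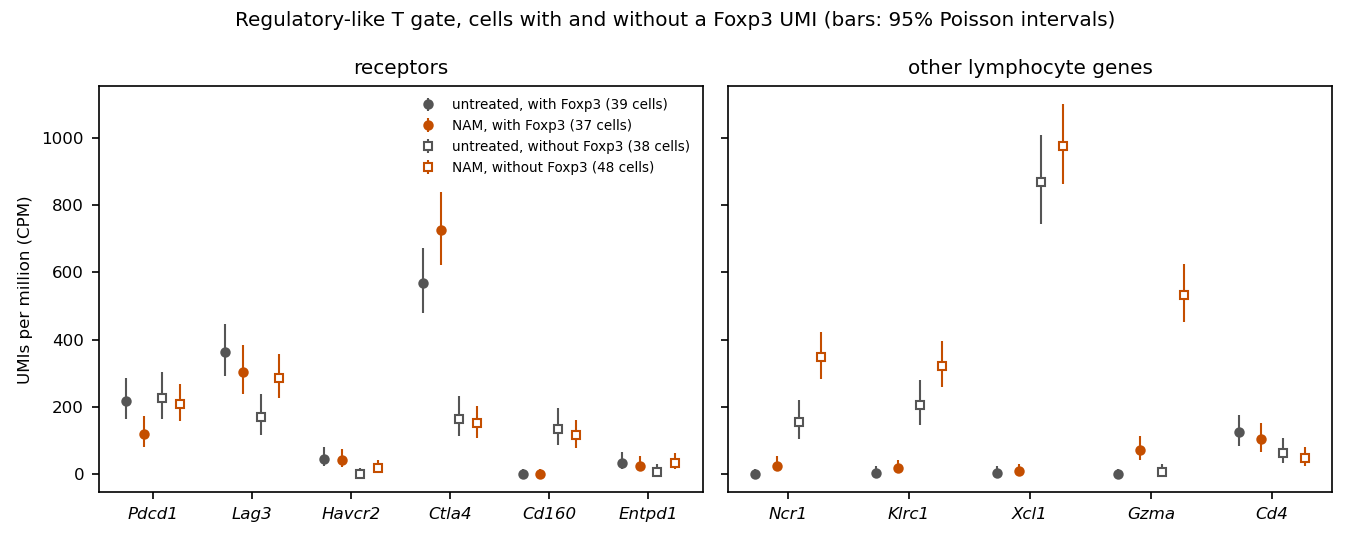
Level (vertical axis, CPM) of 6 receptors (left) and 5 other lymphocyte genes (right) in cells of the regulatory-like T gate with a Foxp3 UMI (filled circles) and without (open squares), untreated grey and NAM orange, with exact 95% Poisson intervals. Ctla4 stands higher in cells with Foxp3, and Cd160, Xcl1 and Klrc1 stand higher in cells without.

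Lists of related genes, 9 in all, were followed in the lymphoid classes, each counted past 1.5 fold with an interval that left out 0. In CD8 T cells 3.15% of all 5813 genes were higher in the NAM library by this rule and 4.2% lower. Other inhibitory receptors had 0 of 9 members past it, and ligands of the receptors 0 of 8. Of 10 signaling genes downstream of the receptors 1 was lower, the adaptor Grb2 (145 against 82.9 CPM, log2 ratio −0.80, −1.30 to −0.31), and of 7 costimulatory receptors 1 was higher, Tnfrsf4 (231 against 363 CPM, 0.65, 0.34 to 0.97). Of 17 transcription factors tied to exhaustion or memory, Nr4a1 was higher (0.70, 0.16 to 1.28) and Tcf7 (−1.59, −2.47 to −0.75), Maf (−1.29, −2.46 to −0.17) and Eomes (−1.21, −1.86 to −0.57) were lower. Memory and naive markers had 4 of 9 lower, among them Tcf7, Slamf6 (−1.19) and Klf2 (−1.0, −1.29 to −0.70), and 1 higher, Il7r (0.72, 0.07 to 1.40), which lies outside the naming rule and is named to complete the count. Of 11 effector molecules, Gzmb (458 against 846 CPM, 0.88, 0.67 to 1.10) and Fasl (0.66) were higher and Ccl3 (808 against 166 CPM, −2.29, −2.57 to −2.0) and Gzma (218 against 53.6 CPM, −2.02) were lower. None of 6 proliferation genes and none of 5 genes of the adenosine pathway passed. List medians lay between −0.32 (memory and naive markers) and 0.46 (costimulatory receptors), beside 0.03 for all genes.

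The same rule gave fewer UMIs to work with in the smaller classes. In regulatory-like T cells, where 4.14% of all genes were higher and 5.21% lower, other inhibitory receptors had Klrc1 higher (0.94) and Klrg1 lower (−0.82) of 7, and signaling genes had Csk higher (0.65) and Inpp5d, the gene of the phosphatase SHIP-1, lower (−1.33) with Grb2 (−0.94) of 10. Maf (−0.64) and Batf (−0.61) were lower and Nr4a2 (0.75) higher among 16 transcription factors. Effector molecules had Gzma at 1 against 166 UMIs and Ccl4 (0.65) higher of 8, and Ncr1 of the same gate stood at 30 and 103 UMIs. After thinning, Gzma was found in 5.88% of the NAM cells of this gate, and at own depth in 9 of 85. The 11 NK-cell markers, Gzma among them with 2.28 and 318 CPM, summed to 730.0 and 1394 CPM in this gate. The 5 monocyte markers summed to 992 and 1418 CPM, with Chil3 at 0 in both libraries and Vcan at 0 in the untreated library. The 4 neutrophil markers summed to 16.0 and 203 CPM, and the part of all these markers in the results was not tested. Costimulatory receptors had 0 of 7, ligands 0 of 6 and adenosine genes 0 of 3 past the rule, memory and naive markers had Cxcr3 higher (0.67) and Il7r lower (−1.17) of 8, and Mki67 was the 1 lower (−0.96) of 6 proliferation genes. In other T cells (6.21% higher and 6.54% lower) the PD-1 and CTLA-4 ligand genes Cd86 (23 against 0 UMIs) and Pdcd1lg2 (−1.16) were lower of 5 ligands, Tnfrsf18 was higher (0.69) of 6 costimulatory receptors, and Nr4a3 (−4.13, on 21 and 1 UMIs) and Id2 (−0.99) were lower of 8 transcription factors. Signaling genes had Grb2 (−1.49) and Csk (−1.39) lower of 7, effector molecules Gzma (1.28) and Ccl5 (0.65) higher and Ccl4 (−2.08) lower of 7, and 0 of 3 other inhibitory receptors and 0 of 7 memory markers passed. Stmn1 was lower (−2.1) of 2 proliferation genes and Ada, which degrades adenosine, was higher (2.84, on 3 and 18 UMIs) of 2 adenosine genes. Cd86 and Nr4a3 reached the limit of 20 UMIs through the untreated library alone. In other T cells mature dendritic markers summed to 1321 and 708 CPM and mast cell and basophil markers to 154 and 0 CPM. Their part in the calls of this class was not tested. Among NK cells (3.31% and 3.72%) Gzma (0.78), Gzmb (0.80), Ccl4 (0.81) and Ccl5 (0.61) were higher of 7 effector molecules, Lgals9, the gene of the TIM-3 ligand galectin-9, was the 1 higher (1.53, 0.66 to 2.41) of 5 ligands, and Klrg1 was lower (24 against 1 UMI) of 4 other inhibitory receptors. Further NK-cell calls were Cd226 (1.36) higher of 6 costimulatory receptors, Tcf7 (1.33) and Nr4a2 (1.1) higher and Id2 (−0.7) lower of 10 transcription factors, Grb2 lower (−1.56) of 8 signaling genes, 3 of 6 memory markers higher, among them Cxcr3 (1.35) and Tcf7, and Mki67 (−3.01) and Top2a (−1.84) lower of 6 proliferation genes, while 0 of 2 adenosine genes passed. In the NK gate the 11 NK-cell markers summed to 8021 and 10039 CPM. Gzma is both among them and among these calls, at 3457 and 5916 CPM. The 5 monocyte markers summed to 2453 and 1712 CPM, with Chil3 and Vcan at 0 in both libraries. The part of these markers in the calls was not tested.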

How the data were processed

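CD45+ cells of untreated and NAM-treated TSA tumors were profiled with 10x Genomics Single Cell 3′ chemistry (1 library per group, 3 mice pooled). The authors deposited raw UMI counts for every gene in every cell, made with Cell Ranger on the mm10 assembly, after a filter on genes, UMIs and mitochondrial share per cell. The lowest cell held 3001 UMIs and 1020 genes, so no cell was lost on thinning to 3000. Strand handling and annotation version are not given in the sources used here.

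Cells were gated on marker UMIs. Lymphoid gates also required under 0.5% of UMIs from 6 myeloid genes (Lyz2, C1qa, C1qb, C1qc, Csf1r and Cd68). NK cells had 2 or more UMIs of Ncr1, Klre1 and Klrb1c and none of Cd3d or Cd3e. Macrophages had 0.1% or more of UMIs from C1qa, C1qb and C1qc. No doublets were removed. UMIs were summed per class and library and divided by the class total (CPM). Libraries are said to differ only where the 95% interval of a ratio leaves out 0, and genes counted against all genes needed 20 UMIs over both libraries. Classes and shares are set apart where their intervals do not overlap. Ratios, shares and thinning were tested on simulated data. Of the list and marker symbols, 8 had no match in the tables (Trac, Trbc1, Trbc2, Trdc, Tcrg-C1, Tcrg-C2, Trgv2 and Bat3).

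Genes named in the text are the 7 receptors, the 5 genes most like each, and up to 4 members of each list by the size of the log2 ratio. Further genes of the Foxp3 split and of the comparison by number of receptors were named after their values were seen. Some members of the lists are not reported here by name. The receptors and lists were chosen with earlier results of these data known. The Ctsk Acp5 class, the Foxp3 split and the comparison by number of receptors were added after the values were seen. Alternatives tried were thinning, median-of-ratios scaling, means over cells, other gates, and leaving out the 5 cells with most UMIs of a receptor or the 5% deepest cells. Python 3.11.15, NumPy 2.4.6, SciPy 1.17.1 and pandas were used, with random seed 1.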

Additional observations from a re-analysis of the deposited data

Results flagged for a closer look

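Receptor UMIs were also found in cells outside the gates. Cells with 2 or more Cd3 UMIs that exceeded the myeloid limit (21 untreated and 42 NAM) stayed ungated, and their median depth of 10899 and 11012 UMIs was above that of gated CD8 T cells. In them Pdcd1 stood at 149 CPM (105 to 207) in the untreated and 67.6 CPM (46.5 to 94.9) in the NAM library, Lag3 at 195 CPM (143 to 259) and 106 CPM (79.5 to 140), and Ctla4 at 82.9 CPM (50.6 to 128) and 41.0 CPM (25.0 to 63.3), each above the macrophage level of its library. In the same cells 7 T-cell markers summed to 1551 and 946 CPM and 8 macrophage markers to 14436 and 18678 CPM, and their part in the lower NAM values was not tested. Ungated cells with no Cd3 UMI (175 and 190) held Lag3 at 54.1 CPM (45.7 to 63.7) and 72.8 CPM (62.9 to 83.7), against 20.7 and 16.2 CPM in macrophages. These ungated cells with no Cd3 UMI include 95 and 118 of the Ctsk Acp5 cells described above. In ungated cells with 1 Cd3 UMI (187 and 241) Lag3 was lower under NAM, at 32.9 and 14.0 CPM, a log2 ratio of −1.24 (−1.83 to −0.67), and the 5 highest cells held 41.1% and 46.3% of these UMIs. In these cells NK-cell markers summed to 101 and 47.0 CPM, neutrophil markers to 160.2 and 50.8 CPM and mature dendritic markers to 165 and 77.4 CPM, and their part in the Lag3 values was not tested.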

How the results depend on the processing

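With 1 library per group no replicate could be left out, and depth set the precision: in CD8 T cells the interval of the log2 ratio ran from −0.04 to 0.33 for Lag3 and from −1.37 to 0.35 for Entpd1. No paired analysis was possible because each group is 1 library. Of 192 alternative values of the log2 ratios, 185 stayed within their counting interval and on their side of 0 where called, 6 moved and 1 turned. Alternatives that left no finite ratio are not among these. Pdcd1 in other T cells was such a case, since the untreated level was 0 without the 5 cells with most of its UMIs. The turned one was Lag3 in other T cells, at −0.44 where 1 Cd3 UMI was enough for the T-cell gate. Without the 5 cells with most UMIs of the receptor, Havcr2 had 0.55 in CD8 T cells and 2.29 in regulatory-like T cells. The untreated Pdcd1 level of NK cells was then 0 by necessity, because fewer cells than that held all its UMIs. With Foxp3 alone as the regulatory gate, Pdcd1 had −0.87 in regulatory-like and 0.55 in other T cells. After thinning, Cd160 had −3.19 in NK cells and Havcr2 −0.41 in monocytes. The cause was not tested.

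Intervals of called differences also reached 0 elsewhere. For Pdcd1 in CD8 T cells this was so after thinning (0.24), without the 5% deepest cells (0.19) and with 1 Cd3 UMI enough for the gate (0.18), for Ctla4 in CD8 T cells with the last gate (0.38) and with a myeloid limit of 1% (0.42), and for Lag3 in macrophages after thinning (−0.29). Lag3 in CD8 T cells gained an interval above 0 without its 5 highest cells (0.23) and without the 5% deepest cells (0.20), macrophage Havcr2 with median-of-ratios scaling (0.18), and regulatory-like Pdcd1 with 1 Cd3 UMI enough for the gate (−0.50).

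Shares of cells fell with depth. Thinning gave 66.5% for Pdcd1 and 67.7% for Lag3 in NAM CD8 T cells, 24.8% and 38.1% for Ctla4, 21.8% and 23.2% for Cd160 and 10.9% and 9.03% for Entpd1 in CD8 T cells of both libraries, 14.3% for Cd160 in untreated regulatory-like T cells and 2.78% for Cd160 in NAM NK cells. In cells with a Foxp3 UMI, Lag3 was found in 54.1% (NAM), Ctla4 in 87.2% and 75.7%, and Cd160 in 0% and 0%. With 1 Cd3 UMI enough, NAM other T cells held Pdcd1 in 15.5% and Ctla4 in 11.3%. At own depth, 75.2% and 83.9% of CD8 T, 58.4% of untreated regulatory-like and 17.5% and 19.4% of NK cells had 2 or more receptors. Likewise 93.1% of NAM CD8 T cells with Pdcd1 held Lag3, 17.2% and 38.5% of those without Pdcd1 held Ctla4 (0% in the untreated library without the 5% deepest cells), and 81.4% of untreated regulatory-like cells without Cd160 held Ctla4. Ordered by thinned shares, monocytes were number 2 for Havcr2 under NAM and macrophages number 2 for Entpd1 in the untreated library.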
